A study of Drosophila melanogaster with 2 samples.

Results

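Pc, Psc, Su(z)2, Sce, Scm and Kdm2 are the genes for Polycomb repressive complex 1 (PRC1) proteins and their close partners other than the polyhomeotic genes. They were taken as a list by function, and make up 6 of the 13945 protein-coding genes on the 6 chromosome arms that carry peaks (2L, 2R, 3L, 3R, 4 and X). The data were peak lists from anti-GFP ChIP-seq (chromatin immunoprecipitation followed by sequencing) on whole Drosophila melanogaster embryos aged 0 to 12 h. The embryos came from a transgenic fly line that stably expresses Spps with GFP fused to its C-terminal end, so the antibody recovers the tagged protein. There were 2 biological replicates of this 1 group and no second condition, and both were called against the same control. What drives the transgene, and whether untagged Spps remains in the line, is not given in the sources used here. Whole embryos mix all cell types, so a peak does not place binding in a tissue.

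Polycomb group proteins keep developmental genes silent. PRC1 compacts chromatin and ubiquitinates histone H2A, and Pc reads the methyl mark that PRC2 places on histone H3. In flies these complexes are recruited through Polycomb response elements (PREs), short DNA elements bound by factors such as Pho, GAGA factor and Spps, a zinc finger protein of the Sp and KLF family. Genes for Polycomb proteins can themselves be bound by Polycomb factors, and the present lists show where Spps-GFP peaks lay at them.

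The peaks came as 4 lists. Each replicate list and the list called on both replicates together (the pooled list) held 30000 peaks, and the list that passed the irreproducible discovery rate (IDR) filter held 3260. The IDR list consisted of the pooled peaks at ranks 1 to 3260 by signal, down to a signal of 100.6. Signal is the authors' enrichment value for a peak against the control, on a scale of its own in each list, so ranks from strongest to weakest are given beside it. The read depth is unknown, and no interval that would need it is given. A long tail of the lists is weak: 10408 of the 30000 pooled peaks had a deposited q-value under 0.05.

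Spps-GFP peaks were strong at Kdm2, Psc and the far end of the Pc window, and weak at Su(z)2, Scm and Sce. A window was the gene span with 2 kb to each side. IDR summits lay in the windows of 3 of the 6 genes (Pc, Psc and Kdm2), against 26.0% of all protein-coding genes. The 3 genes held 4 summits, with signals between 266.9 and 1122. None of the 6 genes had an IDR summit within 500 bp of one of its own transcription start sites (TSSs), where 13.6% of all protein-coding genes had one. Among the 3260 strongest peaks of a single replicate 1 gene did, Kdm2 in replicate 1 (14.1% of all genes) and Psc in replicate 2 (12.9%). In these 6 windows the IDR summits lay in introns or beyond the gene, and the start-site peaks fell under the IDR cut. At Kdm2 the margin was small, with a start-site signal of 99.4 against a lowest IDR signal of 100.6. A count of 0 among 6 genes is near the 13.6% share, so it does not set these genes apart.

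Sequences are shown for the 3 strong summits at Kdm2 and in the Pc window and for 2 stretches just upstream of start sites that carry weaker peaks. They were read from RefSeq release 6, which has the coordinates of dm6, and capitals mark matches on either strand to the GAGA factor string, the Pho core, the Sp/KLF core, the BEAF-32 core and the Dsp1-type string, whose letters are given with the motif counts. The Kdm2 summits are the intronic peak ranked 36 (300 bases around its summit, chr3R:9057465-9057764, plus strand) and the whole peak ranked 290 (chr3R:9055791-9056023, plus strand). The summit counted for Pc lies in an intron of CG11309, and 141 bases of that intron are shown (chr3L:21304468-21304608, plus strand). The last lines are the 250 bases before the inner Kdm2 start site (chr3R:9053041-9053290, plus strand) and before the Scm start site (chr3R:9637612-9637861, minus strand).
Kdm2 peak ranked 36: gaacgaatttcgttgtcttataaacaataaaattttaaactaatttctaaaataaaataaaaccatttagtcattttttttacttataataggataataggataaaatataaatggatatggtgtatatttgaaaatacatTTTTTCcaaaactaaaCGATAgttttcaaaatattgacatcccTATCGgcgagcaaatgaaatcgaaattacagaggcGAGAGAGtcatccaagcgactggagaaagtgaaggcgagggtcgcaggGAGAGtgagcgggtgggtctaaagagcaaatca
Kdm2 peak ranked 290: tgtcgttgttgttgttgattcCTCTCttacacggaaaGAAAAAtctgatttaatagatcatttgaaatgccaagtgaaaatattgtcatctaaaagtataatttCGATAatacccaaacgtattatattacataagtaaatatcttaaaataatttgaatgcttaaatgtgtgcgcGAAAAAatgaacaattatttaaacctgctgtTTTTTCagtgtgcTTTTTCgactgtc
Peak in the Pc window: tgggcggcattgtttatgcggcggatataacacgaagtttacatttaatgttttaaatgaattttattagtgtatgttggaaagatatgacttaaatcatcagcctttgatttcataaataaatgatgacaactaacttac
Kdm2 inner start, upstream: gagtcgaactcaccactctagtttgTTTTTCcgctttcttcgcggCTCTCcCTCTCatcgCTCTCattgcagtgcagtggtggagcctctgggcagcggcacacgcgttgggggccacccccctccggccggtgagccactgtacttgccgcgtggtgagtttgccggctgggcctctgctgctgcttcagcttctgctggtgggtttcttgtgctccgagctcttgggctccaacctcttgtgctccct
Scm start, upstream: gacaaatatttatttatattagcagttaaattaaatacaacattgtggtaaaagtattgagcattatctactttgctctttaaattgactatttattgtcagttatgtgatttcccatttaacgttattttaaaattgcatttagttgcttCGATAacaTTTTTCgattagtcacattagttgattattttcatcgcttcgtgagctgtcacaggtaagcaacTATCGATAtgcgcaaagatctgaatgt

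**Figure D1:**
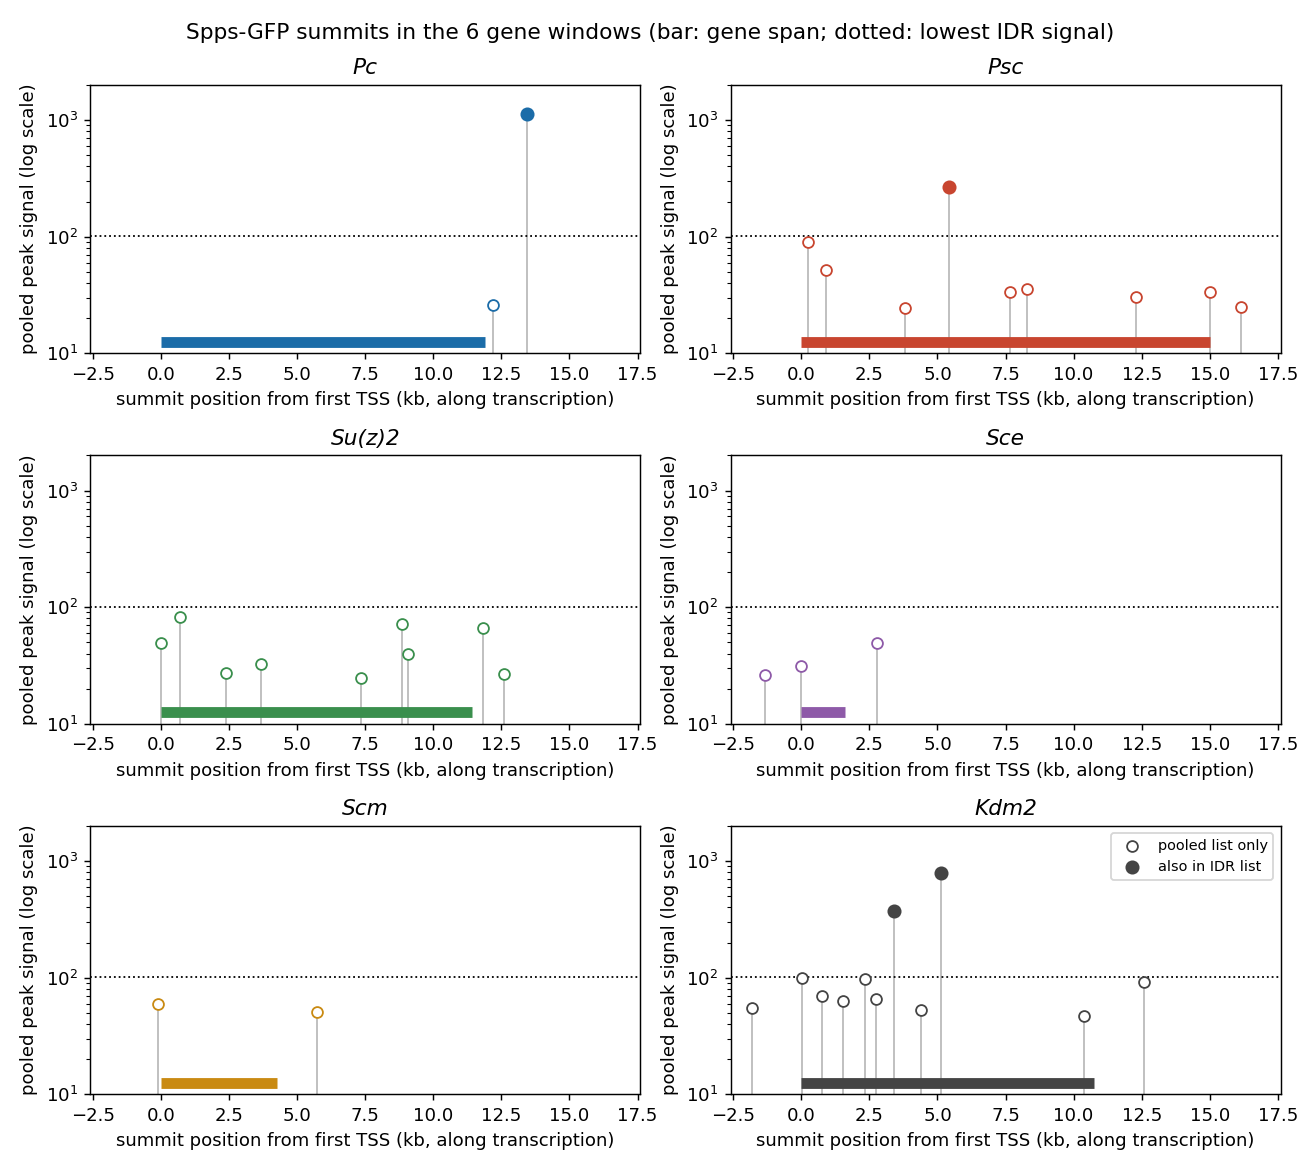
Each panel plots the pooled-list summits in the window of 1 gene by distance from its first TSS along transcription (kb) and by pooled signal (log axis), with IDR peaks filled and the gene span as a bar. The filled points are 2 summits inside Kdm2, 1 inside Psc and 1 beyond the end of Pc, and the points at the start sites lie under the lowest IDR signal of 100.6 (dotted).

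Pc encodes the chromodomain subunit of PRC1, the part that binds methylated histone H3. The gene (FBgn0003042) spans 3L 21306138 to 21318020 on the minus strand, with 1 TSS. Its window held the strongest peak of the 6 genes, at 3L 21304398 to 21304731, with a pooled signal of 1122 and rank 9. The peak had a signal of 693.5 and rank 9 in replicate 1, and a signal of 428.2 and rank 10 in replicate 2, with summits at the same base. Both replicates thus placed it among their strongest peaks.

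That summit lay 1567 bp past the 3′ end of Pc and 13449 bp from the Pc TSS. It sat between the start sites of 2 other genes, CG11309 and CG7632, which are transcribed away from each other. It was 126 bp upstream of the CG7632 TSS, 104 bp upstream of the CG11309 TSS used by 4 transcripts, and 87 bp downstream of a further CG11309 TSS, inside an intron. CG7632 overlaps the 3′ end of Pc on the opposite strand. Without the flank of 2 kb, Pc held 0 IDR summits, so the count for Pc rests on the promoter of its neighbours.

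At the Pc start site itself the replicates gave weak peaks at different places. Replicate 1 had a summit 105 bp upstream of the TSS (signal 25.7, rank 14087) and replicate 2 had one 453 bp upstream (signal 25.0, rank 7665), inside the noncoding gene lncRNA:CR45674. The pooled list held no summit within 500 bp of the Pc TSS, the one gene of the 6 for which this was so. Only 1 other pooled summit lay in the Pc window, in the coding sequence of CG7632 (signal 25.9, rank 26431), and it had no counterpart in replicate 2.

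Psc (Posterior sex combs) encodes a RING finger subunit of PRC1 that is known for compacting chromatin. The gene (FBgn0005624) spans 2R 12965997 to 12980994 on the minus strand, with 2 start sites 336 bp apart. Its IDR peak, at 2R 12975470 to 12975664, lay in an intron 5084 bp downstream of the nearer TSS and was 195 bp wide, against a median of 376 bp for IDR peaks. The pooled signal was 266.9 (rank 629), with 161.3 (rank 654) in replicate 1 and 104.2 (rank 641) in replicate 2. The replicates gave it nearly the same rank, with summits 35 bp apart.

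The Psc start region held a second, weaker peak that both replicates shared. Its pooled summit, with a signal of 89.9 and rank 3897, lay in the 5′ UTR of the longer transcripts, 91 bp upstream of the inner TSS and 245 bp downstream of the outer one. Replicate 2 ranked it 2844 (signal 44.2) and replicate 1 ranked it 6167 (signal 43.0). It was thus inside the 3260 strongest peaks of replicate 2, where the Psc window held 2 summits, and outside those of replicate 1, where it held 1. Of the 9 pooled summits in the Psc window, 4 had a summit within 200 bp in both replicate lists.

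Su(z)2 (Suppressor of zeste 2) encodes a relative of Psc with the same type of RING finger, and the genes lie head to head on 2R. The gene (FBgn0265623) spans 2R 12996501 to 13007911 on the plus strand, with 2 start sites 622 bp apart. Its window held no IDR summit and 9 pooled summits, of which 5 were in both replicate lists. The strongest lay in the 5′ UTR, 75 bp downstream of the inner TSS, with a pooled signal of 82.0 and rank 4462.

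The replicates differed at this start site. Replicate 1 gave a signal of 61.6 (rank 3425), just outside its 3260 strongest peaks, and replicate 2 gave 19.0 (rank 12902). The log2 ratio of replicate 1 to replicate 2 signal was 1.70, above the central 90% of matched IDR peaks (0.0021 to 1.49, median 0.68). Those peaks are all stronger than this summit. Replicate 2 also had a second summit 228 bp downstream of the inner TSS (signal 14.8), which did not enter the ratio. At the outer TSS, 6 bp from a pooled summit of signal 48.9 (rank 9945), replicate 1 ranked 8576 and replicate 2 ranked 22938. A summit in the intron before the last exon was more even, with ranks of 7716 and 4753 in replicates 1 and 2 (pooled signal 71.9, rank 5478).

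The strongest peaks near Psc and Su(z)2 lay outside the windows of both genes. Between the genes are 15506 bp, with 1 IDR summit among 8 pooled summits. This peak (2R 12985047 to 12985380) had a pooled signal of 908.3 and rank 24, with 557.5 (rank 24) in replicate 1 and 341.3 (rank 27) in replicate 2. It lay 4229 bp upstream of the outer Psc TSS, 11278 bp upstream of the outer Su(z)2 TSS and 144 bp upstream of the noncoding gene lncRNA:CR44339. On the other side of Psc, 7777 and 6615 bp past its 3′ end, were peaks with signals of 824.9 (rank 35) and 512.3 (rank 144), both intergenic. Each of these 3 peaks was stronger than any peak inside either gene.

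**Figure D2:**
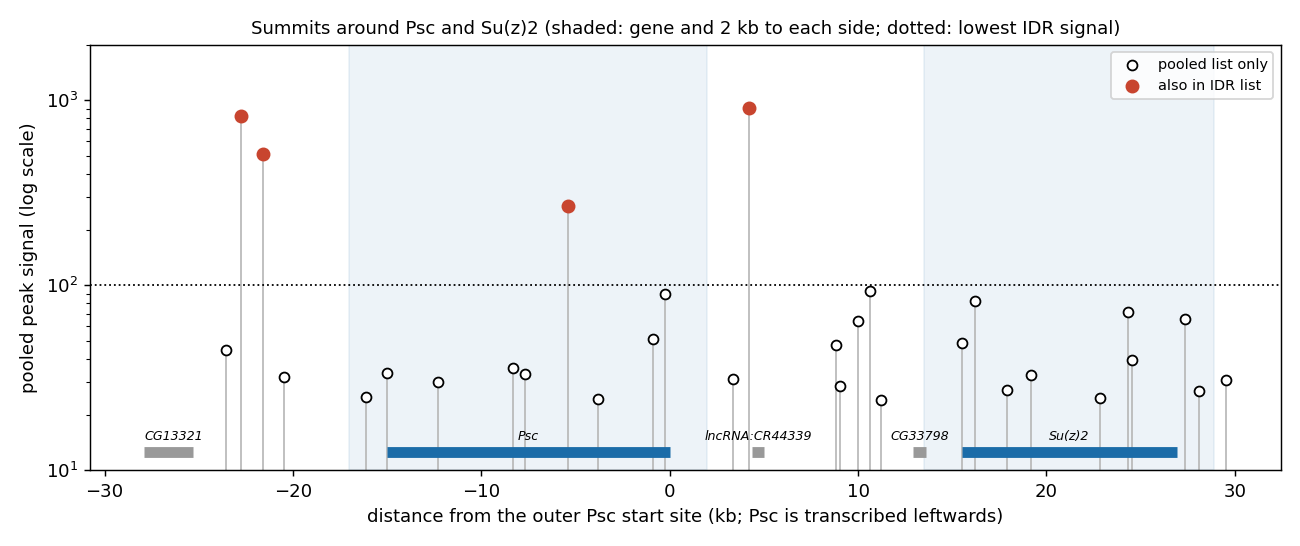
Pooled-list summits around Psc and Su(z)2 are plotted by distance from the outer Psc TSS (kb) and by pooled signal (log axis), with IDR peaks filled, genes as bars and both windows shaded. The peak at rank 24 stands between the shaded windows, the peaks at ranks 35 and 144 stand to the left of the Psc window, and the peak inside Psc is at rank 629.

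Sce (Sex combs extra, also called dRING) encodes the ubiquitin ligase subunit of PRC1. The gene (FBgn0003330) spans 3R 27680431 to 27682029 on the minus strand. Its start site carried the weakest peak of the 5 genes that had one in the pooled list, with a signal of 31.3 (rank 19842), a deposited q-value of 0.371 and a summit 15 bp upstream of the TSS. Replicate 2 had a summit 30 bp upstream (signal 26.3, rank 7035) and replicate 1 had none within 500 bp. The strongest summit in the window belonged to the start of the neighbour CG12883, 31 bp upstream of its TSS, with a pooled signal of 49.3 (rank 9810). The nearest IDR summit lay 24771 bp away, 49 bp upstream of CROT, the largest such distance among the 6 genes.

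Scm (Sex comb on midleg) encodes an MBT and SAM domain protein that associates with PRC1. The gene (FBgn0003334) spans 3R 9633359 to 9637611 on the minus strand, with 1 TSS. A peak shared by both replicates lay 131 bp upstream of this TSS and 440 bp upstream of Dh44, a neuropeptide gene on the other strand. Its pooled signal was 59.1 (rank 7437), with 45.3 (rank 5632) in replicate 1 and 24.5 (rank 7983) in replicate 2. The other summit of the Scm window lay in an intron of SpdS (pooled signal 51.0, rank 9341). The nearest IDR peak, 2412 bp past the 3′ end, lay 96 bp upstream of Calr (signal 136.0, rank 1991), and neither summit in the Scm window reached that level.

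Kdm2 encodes a JmjC and F-box histone demethylase, known in flies as part of a complex that also holds Sce and Psc (dRAF). The gene (FBgn0037659) spans 3R 9052495 to 9063245 on the plus strand, with 2 start sites 796 bp apart. It was the one gene of the 6 with more than 1 IDR summit, which 6.11% of all protein-coding genes, over windows of all lengths, also had. Both summits lay in the same intron of 4170 bp (3R 9053760 to 9057929), 1712 bp apart. The stronger peak, 4324 bp downstream of the inner TSS, ranked 36 in the pooled list (signal 794.8), 35 in replicate 1 (signal 489.0) and 40 in replicate 2 (signal 304.5). The other, 2612 bp downstream of that TSS, ranked 290 (signal 371.9), 270 (239.1) and 391 (128.9) in the same order. In both replicates the former was the stronger of the pair.

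Weaker peaks lay at the Kdm2 start sites, in the intron and near both ends of the window, and both replicates had them. All 11 pooled summits of the window had a summit within 200 bp in each replicate list. At least 11 pooled summits were found in the windows of 589 protein-coding genes (4.22%), whatever their length. The Kdm2 window is long (14751 bp), and a longer window can hold more summits. The share among genes of like window length was not computed. The intron held 6 of the 11, the IDR summits included. Among the 3260 strongest peaks of a single replicate, the window held 4 summits in replicate 1 and 3 in replicate 2. At the outer TSS a summit 26 bp downstream, in the 5′ UTR, had a pooled signal of 99.4 and rank 3321, under the lowest IDR signal of 100.6 by a small margin. Replicate 1 ranked it 1959 (signal 87.0), inside its 3260 strongest peaks, and replicate 2 ranked it 3739 (signal 37.6). At the inner TSS the order turned, for a pooled summit of rank 5817 that lay 31 bp upstream. It had rank 11484 (signal 29.1) in replicate 1 and rank 3277 (signal 40.7) in replicate 2. The matched replicate summits lay 135 bp apart at the outer TSS and 182 bp apart at the inner one, against a median of 26 bp for matched IDR peaks. The largest difference in rank between replicates in this window was at a summit between the IDR peaks. That summit lay 3583 bp downstream of the inner TSS, with rank 4297 in replicate 1 and 26904 in replicate 2.

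Replicate agreement followed peak strength. Of the 36 pooled summits in the 6 windows, 24 (66.7%) had a summit in both replicate lists within 200 bp, against 50.2% of the whole pooled list. All 21 summits ranked 10000 or stronger did, as did 3 of 7 ranked 10001 to 20000 and 0 of 8 ranked 20001 to 30000. Over the whole pooled list the corresponding shares were 99.7% at IDR ranks, 97.4% from there to rank 5000, 86.9% to rank 10000, 47.4% to 20000 and 10.2% to 30000. The count for the 6 genes rests on where their summits lie in that order. It also depends on the matching distance. Within 100 bp, 17 of the 36 summits were in both replicate lists, against 38.4% of the whole pooled list. Within 500 bp 24 were, against 61.3%, so the gap to the whole list narrowed. For the 4 IDR summits the log2 ratio of replicate 1 to replicate 2 signal ran from 0.63 to 0.89, around the median of 0.68 over 3251 matched IDR peaks.

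**Figure D3:**
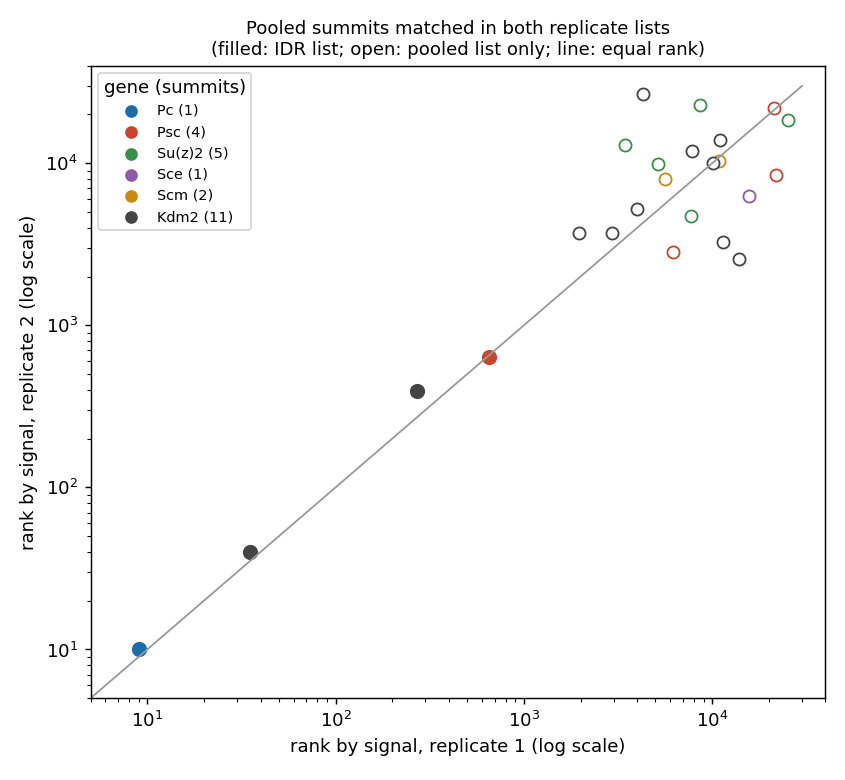
The rank of a summit by signal in replicate 1 is plotted against its rank in replicate 2 (log axes) for the 24 pooled summits of the 6 windows that both replicate lists hold, coloured by gene, with IDR peaks filled. The 4 IDR summits lie close to the line of equal rank, and summits beyond rank 1000 scatter to both sides of it.

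Start-site peaks under the IDR level were found at most of the 6 genes. A pooled summit lay within 500 bp of an own TSS at 5 of them, against 55.1% of all protein-coding genes. At 4 of them (Psc, Su(z)2, Scm and Kdm2) the summit was in both replicate lists, against 40.0%, and at 3 (Psc, Su(z)2 and Kdm2) it was also among the 5000 strongest pooled peaks, against 20.0%. Ranked by the strongest pooled summit at the start site, the order was Kdm2 (rank 3321), Psc (3897), Su(z)2 (4462), Scm (7437) and Sce (19842). That order changed with the replicate. Replicate 1 put Su(z)2 (rank 3425) and Scm (5632) before Psc (6167). Replicate 2 put Psc first (2844) and Su(z)2 (12902) behind Sce (7035), Pc (7665) and Scm (7983). The 6 genes include 3 with 2 start sites and so more promoter sequence than a gene with 1. These were the 3 with the strongest start-site peaks in the pooled list.

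Window length moved with the count of IDR summits. Among all protein-coding genes the share with an IDR summit in the window increased over 5 classes of about equal size by window length, from 12.8% to 42.7%. Pc, Psc, Su(z)2 and Kdm2 were in the longest class (class 5), where 42.7% of genes had a summit and 3 of these 4 did. Scm was in class 4 (29.0%) and Sce in class 2 (21.3%), and neither held a summit. Per length, the 6 windows together held 5.07 IDR summits per 100 kb against 2.44 over the 6 arms, and 45.6 pooled summits against 22.4. The arms include sequence outside gene windows, and the IDR density rests on 4 summits. These densities therefore do not compare the 6 genes with other genes. Among the genes the pooled density ran from 0.126 summits per kb at Pc to 0.746 at Kdm2.

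**Figure D4:**
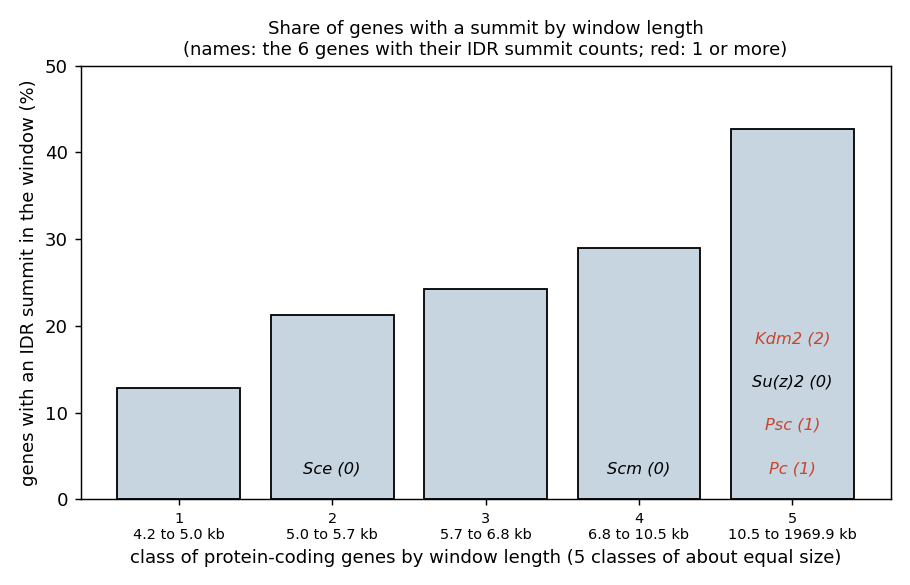
Bars give the percentage of protein-coding genes with an IDR summit in the gene span and 2 kb to each side, in 5 classes by window length, with the 6 genes named in their class and their summit counts in brackets. The share rises from 12.8% to 42.7%, and the 3 genes with a summit are all in the longest class.

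Windows of 201 bp around the 4 IDR summits were searched for 9 consensus motifs on both strands, and 4 of the 9 had a match at 1 or more summits. The GAGA factor string GAGAG was found at 3 of 4 (Psc and both Kdm2 summits), against 21.2% of all IDR summits. The Pho core GCCAT was found at 1 (Psc), against 24.0%. CGATA, the core bound by the insulator protein BEAF-32, and the Dsp1-type string GAAAAA were each found at both Kdm2 summits, against 25.9% and 40.0%. No match was found for the Sp/KLF core (GGGCGGG or GGGCGTG, 1.35% of all IDR summits), the promoter element DRE (TATCGATA, 2.70%; it contains CGATA), Zeste (TGAGTG, 9.23%), Combgap (GTGTGTGT, 2.94%) or Zelda (CAGGTAG, 0.798%). The Sp/KLF core was searched as fixed strings that are rare among all IDR summits, so 0 of 4 is near that share. Other forms of an Sp/KLF site were not searched, and their absence cannot be read from this count. Of the 32 pooled summits of the 6 windows below the IDR level, 9 held GAGAG, against 23.1% of all 26740 pooled summits below that level. The same 32 held GCCAT at 5 summits, against 32.1%, and the Sp/KLF core at 1, against 3.88%. They held GAAAAA at 10 (32.4%), CGATA at 5 (24.7%), TGAGTG at 5 (10.01%), GTGTGTGT at 3 (4.84%), CAGGTAG at 1 (1.06%) and the DRE at 0 (1.85%).

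The base composition of the strong summits was AT-rich, as for IDR summits in general. The 201 bp windows had a GC content of 26.4% and 29.4% at the Kdm2 summits, 29.9% at the one in the Pc window and 35.8% at Psc. The median over all IDR summits was 32.8%, and the arms as a whole had 42.2%. Weaker start-site summits were above the 42.2% of the arms at Psc (51.7%), Su(z)2 (47.3% and 51.7%) and Kdm2 (45.3% and 63.7%). Those at Scm (29.9%) and Sce (36.8%) were below it, though the Sce value was above those of the strong summits. In the printed sequences, the 250 bases before the inner Kdm2 start have a GC content of 61.6% and those before the Scm start 29.2%.

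The same 9 motifs were searched at the 9 start sites of the 6 genes. From 250 bases before to 50 after a start site, GAGAG was present at all 6 start sites of Psc, Su(z)2 and Kdm2 and at none of the start sites of Pc, Sce and Scm, against 33.2% of the 19607 start sites of protein-coding genes. The upstream stretch of the inner Kdm2 start printed above holds 3 of them. GCCAT was present at 3 of the 9 start sites (the outer one of Psc, Sce and Scm), against 41.1%. GAAAAA was present at 7, all but the outer start of Su(z)2 and that of Sce, against 42.7%. CGATA was present at 3 (Pc, Scm and the outer start of Kdm2), against 45.8%. GTGTGTGT was present at the inner starts of Psc and Su(z)2, against 5.26%, and CAGGTAG at the inner start of Psc, against 1.70%. TGAGTG was present at the inner start of Kdm2, against 13.2%. The DRE was present at Scm alone, against 7.99%, and the Sp/KLF core at none, against 3.15%.

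Other Polycomb genes had IDR summits at their own start sites or elsewhere in the window. Of 25 listed genes 24 matched the annotation, and 14 of these 24 had an IDR summit in the window, against 26.0% of all protein-coding genes. Many of the 24, with and without a summit, were in the longest window class, where that share was 42.7%. An own start site had one at 6 (ph-p, Sfmbt, E(z), Su(z)12, jing and Spps), against 13.6%, and 8 had summits in the window alone. Such a pattern was common: of all protein-coding genes, 3627 had a summit in the window and 1897 at an own start site. Of the 4 other PRC1-type genes listed, those with a summit in the window were ph-p (strongest signal 1183) and ph-d (562.6), and not l(3)73Ah or RYBP. In PRC2 5 of 8 held a summit: E(z) (421.5) and Su(z)12 (118.1) at their start sites, jing (266.8 at its strongest, which lay away from its start sites), Pcl (117.8) and Caf1-55, whose summit of signal 1228 was the one 124 bp upstream of Art3. Among PRE-binding factors 5 of 8 did: Trl, the GAGA factor gene (928.7), grh (476.1), Dsp1 (412.1), Spps (165.6) and psq (160.6). Of the Pho complex and deubiquitinase genes 2 of 4 did, phol (545.2, 113 bp upstream of CG3552) and Sfmbt (118.0). For 6 of the 14 (phol, Caf1-55, Pcl, jing, Spps and Dsp1) the start site nearest to the strongest summit belonged to another gene, as it did for Pc. The share of all genes for which this holds was not computed.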

How the data were processed

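The deposited files were 4 peak lists on dm6, per the labels. Per the listings deposited with the samples, peaks were called per replicate and on both alignments together, each against 1 shared control, and the IDR list derives from those 3 lists. The sources used here give no aligner, peak caller or IDR threshold. The signal of a peak is the authors' deposited enrichment value, with a scale that differs between lists. The deposited −log10 q-value was turned into a q-value where one is given, and was the same for all IDR peaks. No read counts were used, so depth is unknown.

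Summits (peak start plus deposited offset) were converted to 1-based positions and ranked by signal. The gene annotation was Ensembl release 115 (BDGP 6.54), transposable elements left out, and bases were read from RefSeq release 6. Windows were the gene span and 2 kb to each side, start-site windows 500 bp, and summits of different lists within 200 bp were matched. Counts are set beside the share of all protein-coding genes. No test was run: there is 1 group, and genes and peaks are not replicates. Counting was checked on planted summits. The genes, lists, motifs and windows were chosen with earlier results of these data known. Named were the 6 genes, genes that start or are nearest at their summits or overlap them, and listed Polycomb genes with an IDR summit. Summits outside the windows, and neighbours at weaker summits, were named after their values were seen. Alternatives were other flanks, start-site windows and matching distances, the 1000 strongest IDR peaks and each replicate alone. The software was Python 3.11.15, pandas 2.3.3, NumPy 2.4.6 and matplotlib 3.10.9.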

Additional observations from a re-analysis of the deposited data

How the results depend on the processing

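Of 49 alternative values, 41 stayed within 1.5 times the main count and 8 moved further. Some of the 41 could not move: from a main count of 0, a narrower window or a shorter IDR list can only return 0. The tally is therefore no measure of robustness. IDR summits lay in the windows of 2 to 4 genes in every alternative tried, while the share of all protein-coding genes also moved. Without a flank 2 genes had one, which drops Pc (0 summits), against 8.83% of all genes. With a flank of 5 kb 4 did, which adds Scm (1 summit), against 37.9%. Among the 1000 strongest peaks 3 did, against 9.70%. In either replicate alone 3 did, against 25.0% without replicate 1 and 26.6% without replicate 2. The flank of 5 kb raised the summits in all windows from 4 to 7 and those at Psc from 1 to 2. With the 3260 strongest peaks of a single replicate, 1 gene had a summit at its own start site in place of 0. It was Psc without replicate 1, against 12.9% of all protein-coding genes, and Kdm2 without replicate 2, against 14.1%. In these lists the Psc window held 1 to 2 summits and the Kdm2 window 3 to 4, with 4 without replicate 2. No paired analysis was possible because there is 1 group and no comparison between groups. The lists stop at 30000 peaks, so a site without a peak may still be bound weakly, and depth limits cannot be given.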

Other observations

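Genes that share the Kdm2 window had start-site peaks of their own. A summit 10 bp upstream of beag and 95 bp upstream of Ada, an adenosine deaminase gene on the other strand, had a pooled signal of 92.1 (rank 3739), with rank 3999 in replicate 1 and 5207 in replicate 2. A summit 137 bp upstream of Nmdmc and 129 bp upstream of a start site of Mst85C had a pooled signal of 54.8 (rank 8367), with ranks of 10065 and 10088. Just outside the window, 4154 bp upstream of the outer Kdm2 start site, an IDR peak of signal 127.9 (rank 2208) lay in an intron of Nmdmc and 304 bp upstream of the outer start site of Mst85C, and replicate 2 ranked it 1220 against 4356 in replicate 1. The genes beag and Ada are transcribed away from each other, as are CG11309 and CG7632 next to Pc.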
